A study of Mus musculus with 8 samples.

Results

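The insulin-like growth factor (IGF) axis was described here at the chromatin level in 4 mouse breast tumors. Its 10 members were the ligands Igf1 and Igf2, the receptors Igf1r and Igf2r, the adaptor proteins Irs1 and Irs2, and the secreted binding proteins Igfbp2, Igfbp3, Igfbp4 and Igfbp5. They were chosen by name out of 21938 protein-coding genes, and for each the H3K27ac peaks within the gene body and 50 kb on either side (the window) were taken from the peak list of each tumor. H3K27ac is acetylation of histone H3 at lysine 27, a mark of active promoters and enhancers, mapped by chromatin immunoprecipitation and sequencing (ChIP-seq). The windows held 139 distinct regions out of 91238 regions genome-wide, a region being the union of overlapping peaks of the tumors.

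All 4 tumors arose in Balb/c mice carrying the PyMT oncogene, which the MMTV promoter drives in the mammary epithelium, on a Rag1KO background, which leaves the host without T and B cells of its own. Wild-type CD4+ T cells were injected into all hosts when they were 4 weeks old, so the control animals carried these cells too. The 2 control tumors came from PyMT;Rag1KO (+CD4+ T cells) mice. The 2 test tumors came from K14-TSLPtg;PyMT;Rag1KO (+CD4+ T cells) mice, in which the keratin 14 promoter expresses the cytokine TSLP in basal epithelial cells such as those of skin. Tumors were collected at terminal size, and the sample titles call the control samples tumors and the test samples cysts. The question behind the comparison was how the chromatin of breast tumors differs when TSLP-exposed CD4+ T cells are present.

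IGF1 and IGF2 are secreted peptides that bind the receptor tyrosine kinase IGF1R. Once active, IGF1R phosphorylates IRS1 and IRS2, which recruit phosphoinositide 3-kinase and so start AKT signalling for growth and survival. IGF2R carries no kinase and removes IGF2 from the cell surface, while the IGFBPs hold the ligands in the extracellular fluid and set how much reaches the receptor. In the mammary gland this axis is known for its part in ductal growth, in survival of the epithelium and in involution after lactation, in which IGFBP5 takes part.

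Peak lists held 69861 and 67850 peaks in the controls, against 65763 and 59762 in the test tumors, covering 73.1, 67.8, 73.0 and 64.3 Mb. The lists gave positions only, with no height or read depth, so the depth behind each peak is unknown and every value below is a presence or a covered length. With 2 tumors against 2 the exact permutation test cannot give a p below 0.333, so no difference could reach significance in that test. Differences are described by whether the 2 groups overlap. Luminal epithelial genes carried the mark in every tumor: 9 of 10 marker genes, among them Epcam, Krt8 and Krt18, had a promoter peak in all 4 tumors, and their mean window coverage was 30.2% and 27.7% in the control tumors, compared with 30.9% and 29.4% in the test tumors. Whole tumors were profiled, so fewer cells carrying a mark and less of the mark per cell cannot be told apart. The Tslp gene itself had no promoter peak in any tumor, its window was covered over 0.524% and 0.668% in the controls and 0.897% and 1.06% in the test tumors, and these lists do not check the transgene.

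Promoter peaks were counted at the gene start of each member. A promoter peak (a peak within 1 kb of the gene start) was present in all 4 tumors at 6 of the 10 members, both receptors, both adaptors, Igfbp4 and Igfbp5, against 49.6% of all protein-coding genes. At Igfbp3 both control tumors and no test tumor had a promoter peak, a pattern held by 0.533% of genes. These were separate short peaks that did not overlap, of 308 bp in control tumor 1 and 223 bp in control tumor 2. No member showed the opposite pattern, which 0.301% of genes held. Igfbp2 had a promoter peak in control tumor 2 alone, and Igf1 and Igf2 had none in any tumor.

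Sequence of the promoters is shown for 4 members with a peak in every tumor and for Igfbp3, which had a peak within 1 kb in the control tumors alone. Each run is the 250 bases before the RefSeq transcript start, on the strand of the gene, in the mouse reference genome (mm10/GRCm38, strain C57BL/6J, whereas the tumors were Balb/c). Capitals mark matches, on either strand, to GC box GGGCGG, E-box CACGTG, TEAD GGAATG or RUNX TGTGGT. The Igf1r run lies at chr7:67952007-67952256 (plus strand), Igf2r at chr17:12769707-12769956, Irs1 at chr1:82291440-82291689, Irs2 at chr8:11008930-11009179 and Igfbp3 at chr11:7213924-7214173 (the last 4 on the minus strand).
Igf1r: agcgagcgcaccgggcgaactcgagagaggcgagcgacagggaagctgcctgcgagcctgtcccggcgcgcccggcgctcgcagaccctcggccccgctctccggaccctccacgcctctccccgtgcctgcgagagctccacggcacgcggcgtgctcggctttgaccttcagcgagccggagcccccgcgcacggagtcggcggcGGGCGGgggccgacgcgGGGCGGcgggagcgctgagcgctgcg
Igf2r: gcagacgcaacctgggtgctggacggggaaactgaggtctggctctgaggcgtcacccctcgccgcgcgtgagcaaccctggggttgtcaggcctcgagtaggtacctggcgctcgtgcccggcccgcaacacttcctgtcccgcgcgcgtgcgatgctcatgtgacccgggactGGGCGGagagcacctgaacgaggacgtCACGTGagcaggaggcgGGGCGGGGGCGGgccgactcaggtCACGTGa
Irs1: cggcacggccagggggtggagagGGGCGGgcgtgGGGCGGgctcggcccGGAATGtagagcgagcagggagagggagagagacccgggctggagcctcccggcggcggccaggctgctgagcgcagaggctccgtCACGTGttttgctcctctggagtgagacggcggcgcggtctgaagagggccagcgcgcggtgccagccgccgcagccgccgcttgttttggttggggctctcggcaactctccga
Irs2: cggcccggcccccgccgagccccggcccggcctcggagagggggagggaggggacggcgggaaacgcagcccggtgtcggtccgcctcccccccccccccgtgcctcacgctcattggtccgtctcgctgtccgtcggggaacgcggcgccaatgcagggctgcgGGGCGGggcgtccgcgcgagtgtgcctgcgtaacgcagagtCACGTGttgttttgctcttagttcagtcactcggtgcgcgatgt
Igfbp3: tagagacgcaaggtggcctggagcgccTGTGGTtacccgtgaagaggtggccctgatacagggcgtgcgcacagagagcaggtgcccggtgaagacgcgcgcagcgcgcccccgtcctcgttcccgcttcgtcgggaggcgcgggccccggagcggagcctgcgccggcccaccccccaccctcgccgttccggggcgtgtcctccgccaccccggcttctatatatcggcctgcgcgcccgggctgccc
The RefSeq promoter table (250 bases before to 50 after the start, 300 in all) matched all 10 members with 14 promoters. Of these 14, the E-box letters stood in 4 promoters, 1 each of Igf2r, Irs1, Irs2 and Igfbp2, and in 7.15% of all 32851 promoters of the table. The GC box stood in 7 of the 14, in those of 6 members, and in 35.7% of all promoters. AP-1 TGANTCA stood in 2 member promoters (7.81% of all), TEAD in 5 (14.7%), RUNX in 1 (16.8%) and the TATA box letters TATAAA in 1 (13.6%), while STAT TTCNNNGAA (8.30%) and the GATA motif letters AGATAA (11.2%) were in none. CpG pairs numbered 48 in the Igf1r promoter, 41 in Irs2, 34 in Igf2r, 28 in Irs1 and 37 in Igfbp3, against a median of 7 over the table. A promoter rich in CpG therefore stood at Igfbp3 too, where no tumor had a peak within these 300 bases. Igfbp4 and Igfbp5, which also had a promoter peak in every tumor, held 27 and 10 CpG pairs and no GC box. An Igf2 promoter without a peak in any tumor held 24. A match is a run of letters and does not show that a factor was bound.

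The ligands carried little of the mark. Peaks covered 1.27% and 0.475% of the Igf1 window in the controls, against 0.982% and 0.770% in the test tumors, so the groups overlapped. The gene start of Igf1 had no peak within 1 kb, but a region further into the gene (chr10:87859883-87860440, in an exon annotated as UTR) covered 443 and 228 bp in the control tumors, 352 bp in test tumor 1 and nothing in test tumor 2. Several Igf1 transcripts start near that region, the one at 1.77 kb inside it. An intronic Igf1 region 68.5 kb from the start was the sole one of its 5 regions present in all 4 tumors, with 720, 327, 585 and 441 bp. For Igf1, therefore, 3 of 4 tumors held a peak near the downstream starts and all 4 held the intronic one.

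Igf2 had no peak anywhere in its window in any tumor. The nearest peak lay 95.4 and 94.8 kb from its start in the control tumors, compared with 95.4 and 133 kb in the test tumors. H19, the imprinted noncoding gene that shares enhancers with Igf2 (chr7:142575529-142578143), had no peak at its body in any tumor either. The peak nearest to the H19 start was 6.73, 6.11, 6.75 and 44.5 kb from it, and was in each tumor the same peak that lay nearest to Igf2. Coverage of the Igf2 window was thus 0% in all 4 tumors. The lists were cleaned before deposit, and the part of that step in the absence of peaks at Igf2 and H19 was not tested.

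**Figure D1:**
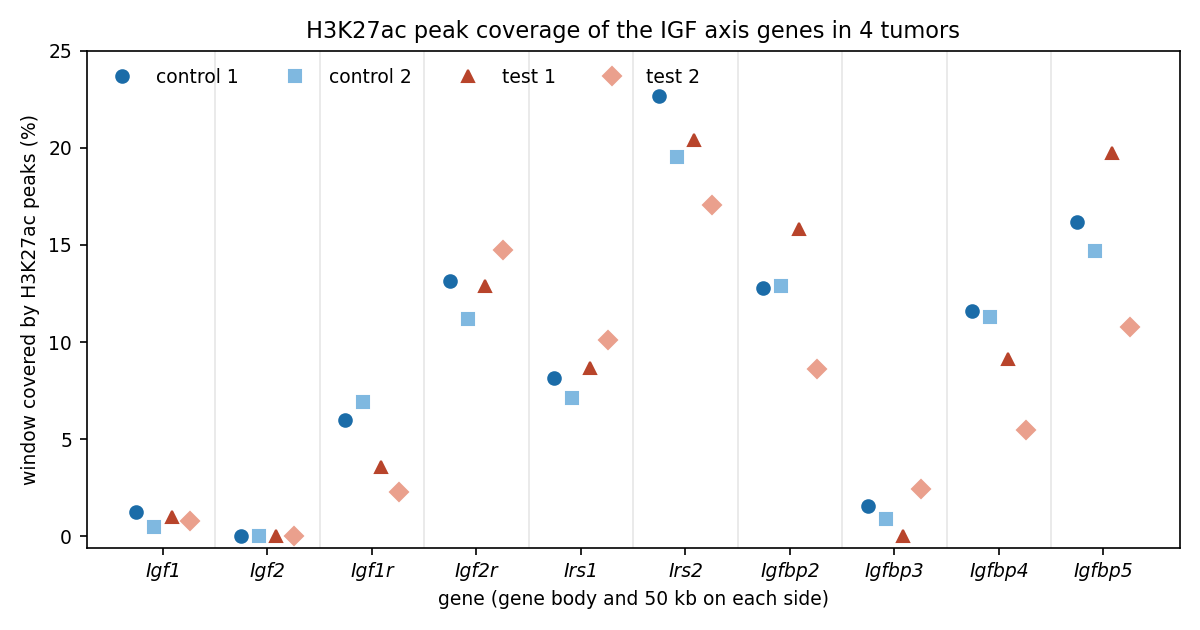
Percent of each window (gene body and 50 kb on each side) covered by H3K27ac peaks, 1 point per tumor, controls in blue and test tumors in red. The groups do not overlap at Igf1r and Igfbp4, where both control tumors are higher, and at Irs1, where both test tumors are higher.

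Igf1r, the signalling receptor, had more of its window covered in the control tumors. Coverage was 5.96% and 6.93% in the controls, against 3.58% and 2.27% in the test tumors. The difference was -3.52 percentage points (control mean 6.45% ± 0.688, test mean 2.92% ± 0.929, SD, n = 2 each, exact permutation test, two-sided, p = 0.333, the smallest possible). Of the covered protein-coding genes, 13% had higher coverage in both control tumors and 2.43% had a lower difference than Igf1r. In length, the peaks covered 22.7 and 26.4 kb in the control tumors, compared with 13.6 and 8.63 kb in the test tumors. Each of the 4 test and control pairs gave a lower value for the test tumor, between -4.67 and -2.38 points. With the lists cut to the 59762 widest peaks of each tumor, the number in the shortest list, the difference was -3.27 points and the groups stayed apart.

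The Igf1r window held 39 regions, of which 24 and 35 were present in the controls, against 14 and 12 in the test tumors. Of these, 24 regions (61.5%) were seen in 1 or both control tumors and in no test tumor, and none was seen in a test tumor alone, where genome-wide the shares were 22.8% and 18.2%. Control tumor 2 alone supplied 14 of the 24 and control tumor 1 alone 4, so 6 rested on both. These 6 were control-only regions (both controls have a peak and neither test tumor does) against 3.41% of regions genome-wide. Their covered lengths in the control tumors ranged from 162 to 1814 bp, counting the part of 1 region that runs past the end of the window.

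Only 2 of the 6 were upstream of or inside Igf1r. The first, 1.40 kb before the start (chr7:67951120-67951424), covered 207 and 305 bp in the control tumors. The second lay in an intron 182 kb into the gene (chr7:68134655-68135644) and covered 513 and 717 bp. The other 4 lay past the end of Igf1r, near the starts of Pgpep1l and Fam169b. In 1 of them the 802 bp of control tumor 1 overlapped the Pgpep1l start and the 200 bp of control tumor 2 did not. The bases that the peaks of both control tumors shared are given for the 2 regions of Igf1r, on the plus strand, at chr7:67951154-67951360 (66.2% G and C) and chr7:68134797-68134967 (46.2%), with a RUNX match (here read from the other strand) in capitals.
Igf1r upstream: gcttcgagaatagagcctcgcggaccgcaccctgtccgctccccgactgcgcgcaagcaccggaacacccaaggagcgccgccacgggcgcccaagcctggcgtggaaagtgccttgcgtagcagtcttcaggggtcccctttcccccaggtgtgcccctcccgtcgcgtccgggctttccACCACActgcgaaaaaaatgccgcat
Igf1r intron: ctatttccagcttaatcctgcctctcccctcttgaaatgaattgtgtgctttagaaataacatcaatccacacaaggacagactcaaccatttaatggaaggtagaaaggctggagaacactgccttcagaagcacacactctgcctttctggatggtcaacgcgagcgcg
The upstream run held the RUNX letters once, as did 14.5% of the central 207 bases of all regions that long. None of the 8 motifs stood in the intronic run.

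**Figure D2:**
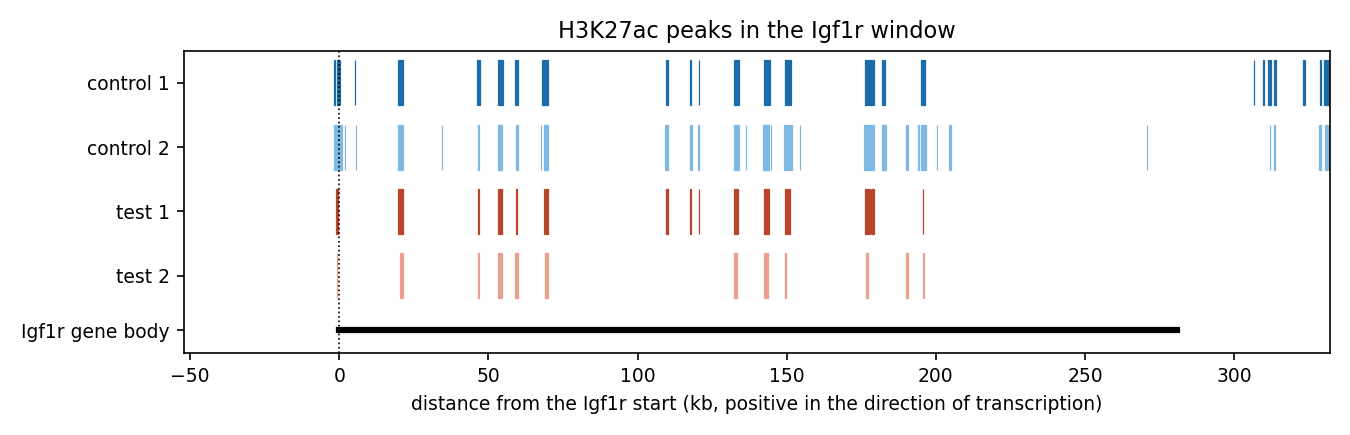
H3K27ac peaks in the Igf1r window by distance from the gene start in kb, 1 row per tumor, with the gene body as a black bar (narrow peaks are drawn at a minimum line width). Peaks of the control tumors past 300 kb, near Pgpep1l and Fam169b, have no counterpart in the test tumors.

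Regions that all 4 tumors shared also differed in width across Igf1r. Of its 11 shared regions, 5 were covered over more bases in both control tumors than in both test tumors and none over fewer, against 13.3% and 19.1% of shared regions genome-wide. The region at the start (2062 bp wide) was covered over 843 and 2014 bp in the control tumors, compared with 716 and 272 bp in the test tumors. The region at a downstream annotated start 196 kb into the gene (chr7:68147789-68149352) was covered over 1405 and 1564 bp against 166 and 242 bp. In contrast, the intronic region 53.1 kb from the start held 1539 and 1494 bp in the controls, against 1298 and 1511 bp in the test tumors, so those groups overlapped. All 5 regions that differed lay at the start or at 132 kb and further into the gene, a description made after the values were seen.

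Part of the Igf1r difference came from regions nearer to the starts of other genes. Regions whose nearest gene start was Igf1r covered 14.4 and 16.6 kb in the control tumors, compared with 11.3 and 7.12 kb in the test tumors, so the groups stayed apart. Regions nearest to the Pgpep1l start, most of which lie in the Igf1r body, covered 6.82 and 8.55 kb against 2.36 and 1.51 kb. Those nearest to Fam169b covered 2.48 and 2.21 kb against none. Counting only the regions nearest to its own start, the difference of Igf1r was -1.66 points, compared with -3.52 in the whole window. In the gene body alone it was -3.64 points. The body was covered over 6.53% and 8.31% in the control tumors, compared with 4.60% and 2.98% in the test tumors.

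**Figure D3:**
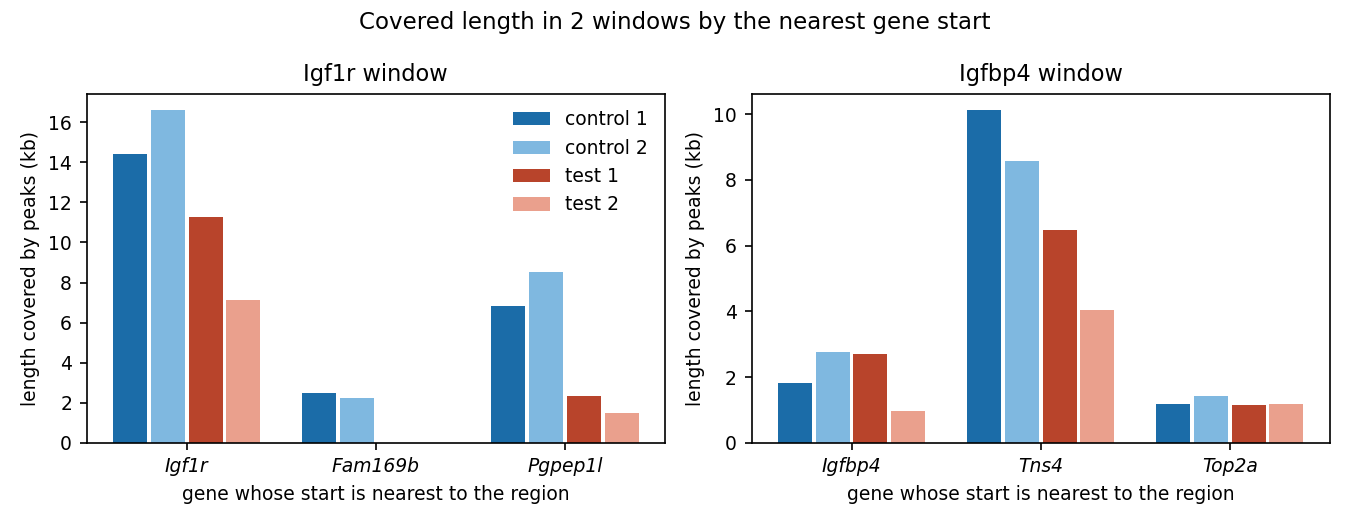
Length covered by peaks in kb for the Igf1r window (left) and the Igfbp4 window (right), split by the gene start nearest to each region, 1 bar per tumor. Regions nearest to Igf1r keep the groups apart, whereas at Igfbp4 the gap lies in the regions nearest to Tns4.

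Igf2r, the clearance receptor, held more peak coverage than Igf1r in every tumor. Coverage was 13.1% and 11.2% in the controls, against 12.9% and 14.7% in the test tumors, overlapping (difference 1.65 points, pairings from -0.257 to 3.56). Leaving out 1 tumor moved it to 2.62 (control tumor 1), 0.676 (control tumor 2), 2.58 (test tumor 1) or 0.716 points (test tumor 2). The region at its start (chr17:12767722-12770128) was covered over 1886 and 1551 bp in the control tumors, compared with 1982 and 2316 bp in the test tumors. Of its 11 regions shared by all 4 tumors, 4 were wider in both test tumors and 1 in both control tumors, next to the 19.1% and 13.3% given above. The start of Airn, a noncoding RNA transcribed from an intron of Igf2r on the other strand and known to silence the paternal Igf2r allele, had a promoter peak in all 4 tumors. The mark carries no strand, so peaks there cannot be assigned to either gene.

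A test-only region (both test tumors have a peak and neither control does, 1.47% of regions genome-wide) lay in Igf2r 20.9 kb from its start (chr17:12748388-12748729) and covered 340 and 253 bp. It spans part of a coding exon and of the intron that follows it. The shared bases of the 2 test tumors (chr17:12748477-12748727, minus strand) held none of the 8 motifs.
Igf2r test-only: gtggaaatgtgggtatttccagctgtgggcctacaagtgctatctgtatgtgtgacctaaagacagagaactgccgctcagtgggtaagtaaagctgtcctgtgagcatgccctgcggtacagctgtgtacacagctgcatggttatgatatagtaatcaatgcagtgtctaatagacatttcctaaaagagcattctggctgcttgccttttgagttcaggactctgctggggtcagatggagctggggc

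Both adaptor genes carried broad peaks over their starts. Coverage of the Irs1 window was 8.12% and 7.11% in the controls, against 8.66% and 10.1% in the test tumors. The difference was 1.76 points and was positive in every pair (0.535 to 2.98, exact permutation test, two-sided, p = 0.333). It was 1.04 points without test tumor 2, 3.23 with flanks of 10 kb and 3.60 in the gene body alone, and with only peaks at least 1 kb wide it was 1.02 and the groups overlapped. Higher coverage in both test tumors was seen at 17.3% of covered genes, and 95.0% of them had a lower difference than Irs1. The region at the Irs1 start (chr1:82282212-82292963, 10752 bp) was covered over 8350 and 7156 bp in the control tumors, compared with 8618 and 10752 bp in the test tumors. In test tumor 2 it was a single unbroken peak, whereas 2 or 3 peaks made it up in the others. Control tumor 1 and test tumor 1 were close in this region.

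Irs1 also held a test-only region in its intron, 12.7 kb from the start (chr1:82278521-82278743), with 203 and 194 bp. The bases shared by both test tumors (chr1:82278550-82278723, minus strand) held no match to the 8 motifs.
Irs1 test-only: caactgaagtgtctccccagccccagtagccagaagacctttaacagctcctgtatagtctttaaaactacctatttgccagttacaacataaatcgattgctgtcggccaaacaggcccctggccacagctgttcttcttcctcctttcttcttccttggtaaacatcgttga
Of the 5 Irs1 regions shared by all tumors, 3 were wider in both test tumors and none in both control tumors. Genome-wide the shares of shared regions were 19.1% and 13.3%. However, 1 of the 3 Irs1 regions lay at the start of the neighbour Rhbdd1.

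Irs2 had the highest coverage of the 10 members in control tumors 1 and 2 and in both test tumors. It stood at 22.7% and 19.5% in the controls, against 20.4% and 17.1% in the test tumors, so the groups overlapped (difference -2.38 points, pairings from -5.61 to 0.838). Leaving out 1 tumor moved it to -0.82 (control tumor 1), -3.95 (control tumor 2), -4.04 (test tumor 1) or -0.73 points (test tumor 2), and it was -4.57 in the gene body, -3.97 when peaks under 1 kb were dropped and -0.933 with flanks of 100 kb. Averaged over the 4 tumors, its coverage exceeded that of 95.6% of all protein-coding genes. A peak spanned the Irs2 start in every tumor (chr8:10999585-11010223, 10639 bp) and covered 10592 and 10545 bp in the control tumors as 1 peak each. It was 9830 bp in 2 peaks in test tumor 1 and 9129 bp in 3 peaks in test tumor 2. The start region was thus shorter and more broken in the test tumors at Irs2 and longer at Irs1.

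**Figure D4:**
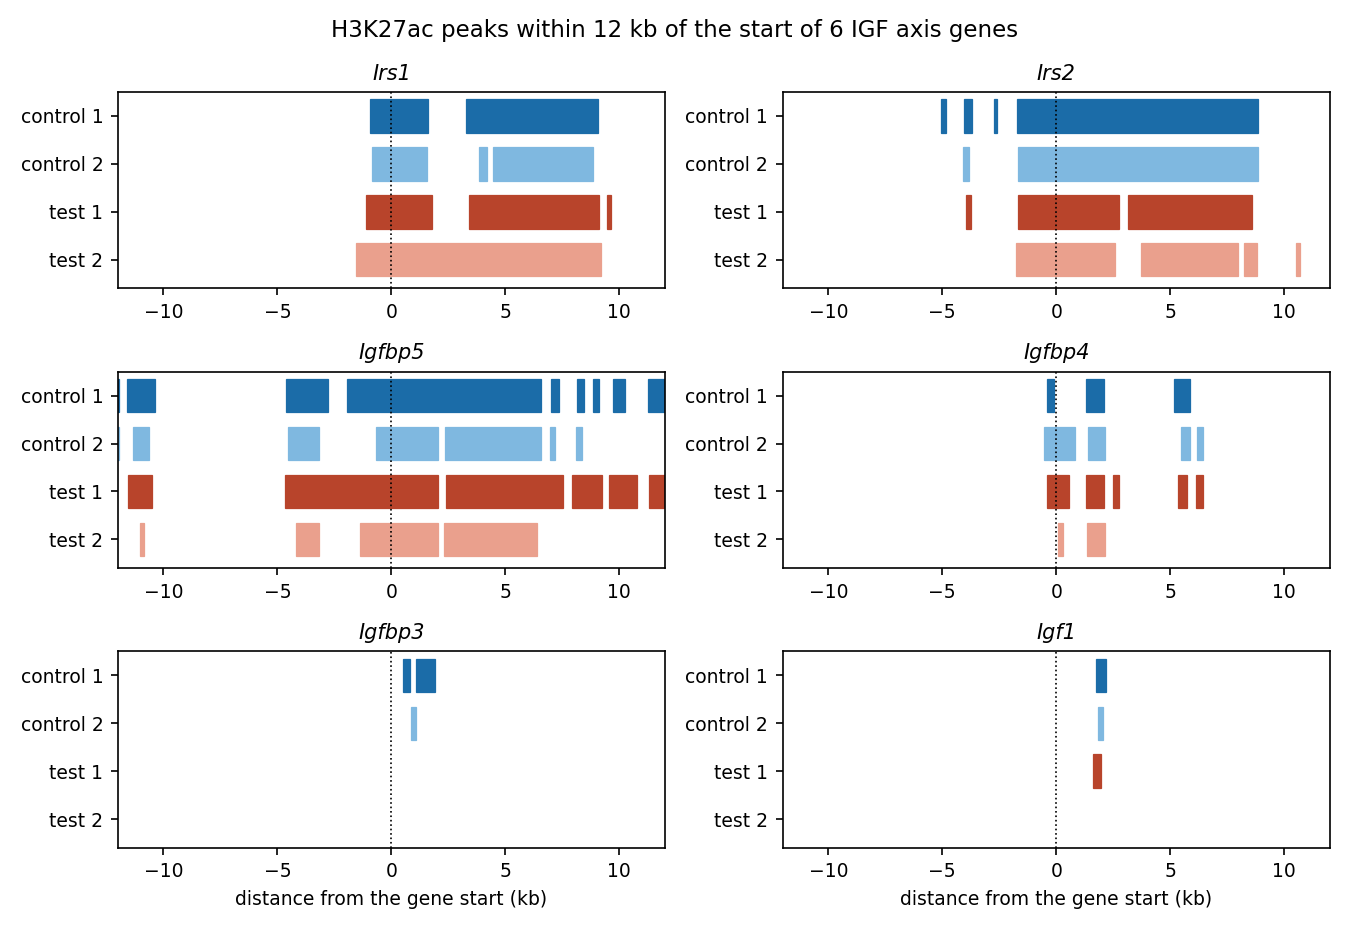
H3K27ac peaks within 12 kb of the starts of 6 members, in kb from the start along the direction of transcription, 1 row per tumor. Broad peaks cover Irs1, Irs2 and Igfbp5 in all tumors, the Igfbp4 peaks are short, and those of Igfbp3 are present in the 2 control tumors only.

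Igfbp3, the main carrier of IGF in serum, had peaks near its start in the control tumors only. A region 0.868 kb into the gene (chr11:7211996-7213055) was covered over 855 bp in control tumor 1 and 223 bp in control tumor 2 and over none in the test tumors. The peaks of the 2 control tumors overlapped there by 18 bp, so the region counts as control-only on a narrow overlap. A further peak of 308 bp nearer to the start was in control tumor 1 alone. The start did not speak for the whole window, which was covered over 1.54% and 0.909% in the control tumors, 0% in test tumor 1 and 2.43% in test tumor 2. Test tumor 2 had peaks of 790, 1161 and 385 bp 20.5 to 24.1 kb upstream of Igfbp3, of which the first was covered over 324 and 229 bp in the control tumors and the third over 158 bp in control tumor 2. Within the gene body alone, the groups did not overlap, with 14.8% and 2.85% in the control tumors, compared with 0% in both test tumors.

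Igfbp4, which restrains IGF until it is cleaved by PAPP-A, had a larger covered share in both control tumors. Its window was covered over 11.6% and 11.3% in the controls, against 9.13% and 5.47% in the test tumors (difference -4.14 points, pairings from -6.11 to -2.17, exact permutation test, two-sided, p = 0.333), and 1.63% of covered genes had a lower difference. Without test tumor 2 it was -2.32 points, and with flanks of 10 kb it was -1.37 points and the groups overlapped. The groups were apart in the flanks, at 11.6 and 10.6 kb in the controls against 8.05 and 5.23 kb in the test tumors, and overlapped in the gene body, which was covered over 11.5%, 16.8%, 17.3% and 7.34% in the same order. Regions nearest to the Igfbp4 start covered 1.82 and 2.76 kb in the control tumors, compared with 2.70 and 0.965 kb in the test tumors, which overlapped. Regions nearest to Tns4, the neighbour 48.1 kb away, covered 10.1 and 8.59 kb against 6.47 and 4.06 kb. The 1 control-only region of the window (chr11:99080701-99081328, 512 and 296 bp) and all 4 shared regions wider in both control tumors were nearest to Tns4. At the Igfbp4 start itself the peaks were short, 307 and 1366 bp in the controls, against 964 and 213 bp in the test tumors.

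Igfbp2 and Igfbp5 are tail-to-tail neighbours 5.46 kb apart, so 94.5 kb of their windows and 19 regions were shared and they were not independent. Igfbp5 coverage was 16.2% and 14.7% in the control tumors, compared with 19.7% and 10.8% in the test tumors, and that of Igfbp2 12.8%, 12.9%, 15.8% and 8.60% in the same order. In both windows test tumor 1 was the highest and test tumor 2 the lowest, with the control tumors between. A broad region over the Igfbp5 start (chr1:72867356-72879537, 12182 bp) was the widest of any member and was covered over 10716 and 8549 bp in the controls, against 11853 and 8500 bp in the test tumors. The Igfbp2 start, by comparison, had a peak in control tumor 2 alone (1766 bp), and its gene body was covered over 4.66 kb in that tumor against 0.318, 0.754 and 0.834 kb in control tumor 1 and the test tumors. Most of what was covered in the Igfbp2 window of those 3 tumors lay past the gene, around Igfbp5.

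A test-only region stood 16.1 kb upstream of Igfbp5 (chr1:72890994-72892105) and covered 651 and 1112 bp. The central 300 of the 651 bases shared by both test tumors (chr1:72891513-72891812, minus strand) held none of the 8 motifs.
Igfbp5 test-only: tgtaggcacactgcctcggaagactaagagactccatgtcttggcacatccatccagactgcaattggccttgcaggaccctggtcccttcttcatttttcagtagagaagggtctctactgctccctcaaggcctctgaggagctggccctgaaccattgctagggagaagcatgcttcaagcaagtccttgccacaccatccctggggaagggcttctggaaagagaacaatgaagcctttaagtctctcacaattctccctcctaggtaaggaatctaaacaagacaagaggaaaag

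Over the 10 members, coverage was higher in both control tumors at 2, higher in both test tumors at 1 and overlapped at 7, 1 of which was Igf2 with no peak, next to the 13% and 17.3% of all covered genes. The median difference was -0.083 points over the 10 members and -0.159 over the 9 with a covered window, against 0.0192 points over all covered genes, and their mean coverage of 9.32% and 8.50% in the control tumors overlapped with 9.12% and 7.22% in the test tumors (difference -0.741 points, exact permutation test, two-sided, p = 0.667). Of the 139 regions, 50 (36.0%) were present in all 4 tumors, close to the 38.1% of all regions. Control-only regions numbered 8 (5.76%, against 3.41% of all regions) and test-only regions 3 (2.16%, against 1.47%). A control-only region lay in the windows of 3 of the 10 members and of 19% of all protein-coding genes. A test-only region lay in those of 4 members, Igfbp2 and Igfbp5 sharing theirs, and of 10.4% of genes. Igf1r held 6 of those 8, with 1 each at Igfbp3 and Igfbp4. In the other 9 windows, 21% of the 100 regions were seen in control tumors alone and 16% in test tumors alone, against 22.8% and 18.2% of all regions.

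**Figure D5:**
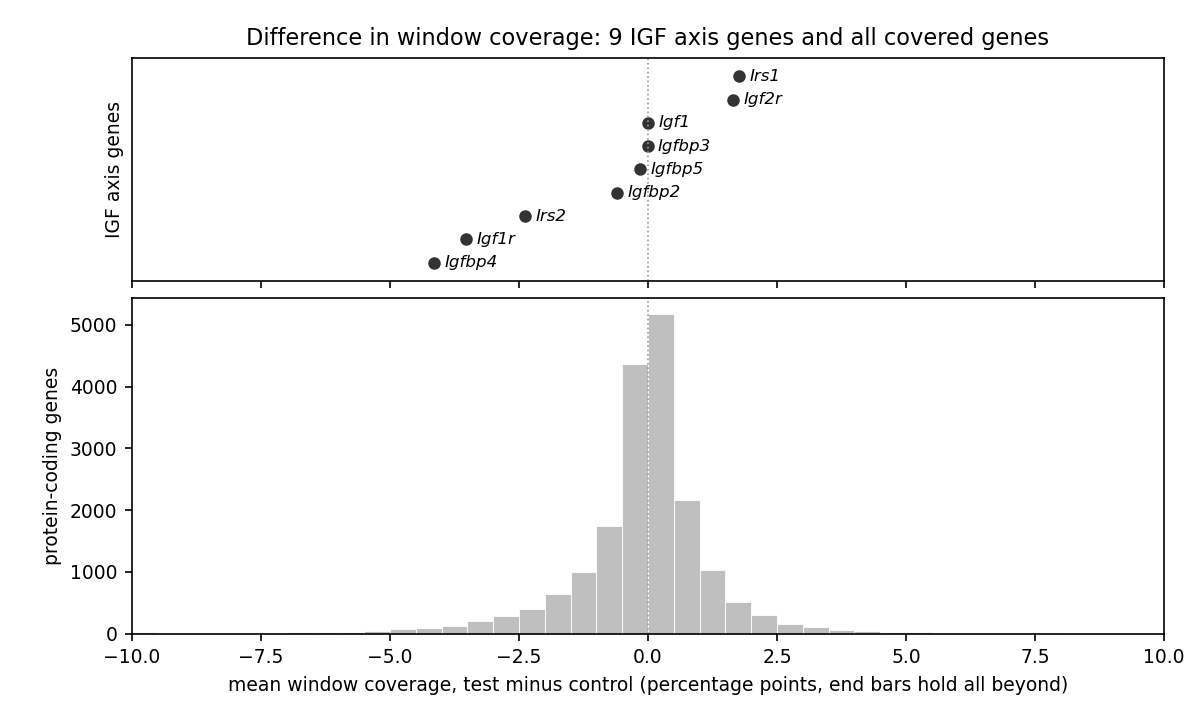
Difference in mean window coverage, test minus control, in percentage points, for the 9 members with any peak (upper panel, 1 point per gene) and for all 18693 covered protein-coding genes (lower panel, bars of 0.5 points). Igfbp4 and Igf1r lie in the left tail at -4.14 and -3.52 points, Igf2r and Irs1 on the right at 1.65 and 1.76 points.

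Counts for marker genes of other cell types are given beside these differences. Of 6 endothelial marker genes, 4 had higher coverage in both control tumors and none in both test tumors, next to the 13% and 17.3% of covered genes, and promoter peaks were found at 3, 3, 2 and 0 of them in control tumors 1 and 2 and test tumors 1 and 2. Of 9 fibroblast markers 3 were higher in both control tumors and 1 in both test tumors, with promoter peaks at 3, 3, 2 and 0, and Lum had no covered window in any tumor. Of 7 myoepithelial and 7 macrophage markers, 3 each were higher in both control tumors and none in both test tumors, with mean coverage of 8.24%, 7.42%, 7.96% and 5.25% and of 6.49%, 6.40%, 6.50% and 4.66%. Their promoter peaks numbered 5, 1, 3 and 0 and 5, 3, 3 and 2. Of 6 T cell markers 1 was higher in both control tumors and 3 in both test tumors, and promoter peaks were found at 1, 0, 1 and 0 of the 6. The 3 higher in the test tumors, Cd3e, Cd3d and Cd4, had no promoter peak in any tumor. None of the hepatocyte, neuron and adipocyte markers had a promoter peak in any tumor, and coverage was higher in both control tumors at 2 of 3, 0 of 3 and 0 of 5 of them and in both test tumors at 0, 1 and 1. Of the 10 luminal markers, none was higher in both control tumors and 3 were in both test tumors. Mean coverage was 3.49%, 2.94%, 2.88% and 2.35% for the endothelial list and 3.85%, 3.56%, 3.88% and 2.73% for the fibroblast list. In every one of these lists but the neuron and luminal ones, test tumor 2 had the lowest mean coverage of the 4 tumors, as it had at Igf1r and over all protein-coding genes (5.83% and 5.75% in the controls, 6.16% and 5.21% in the test tumors). The part of these cell types in the Igf1r, Igfbp3 and Igfbp4 values was not tested.

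The wider pathway, 38 genes for insulin and its receptor, further binding proteins, the proteases and stanniocalcins that regulate them, and the signalling chain to AKT and mTOR, overlapped between the groups at most genes. In 31 of the 38 the groups overlapped (3 of these, Ins1, Ins2 and Irs4, had no peak in the window), 3 were higher in both control tumors and 4 in both test tumors, out of 35 with a covered window and next to the 13% and 17.3% of all covered genes. Among those 7, Igfbp7, a related binding protein, had the largest difference towards the control tumors, at 11.5% and 9.23% against 8.30% and 4.30%. Pik3cb, a catalytic subunit of phosphoinositide 3-kinase, followed with 10.5% and 11.3% against 10.4% and 9.68%. Stc2, a secreted inhibitor of the IGFBP protease PAPP-A, had the largest difference towards the test tumors, with 0.361% and 2.23% in the control tumors, compared with 2.49% and 4.30% in the test tumors. Akt2 followed with 5.39% and 6.63% against 7.61% and 6.73%. Promoter peaks stood in all 4 tumors at 20 of the 38, next to 49.6% of all protein-coding genes, and none had a promoter peak in both tumors of one group alone.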

How the data were processed

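H3K27ac ChIP-seq peak lists of 4 tumors were used, 2 per genotype, grouped by the genotype labels. The authors aligned the reads with BWA to mm10, called peaks in each tumor with MACS2 against its input and deposited cleaned, merged lists that hold positions only. What the cleaning removed is not given in the sources used here, and the smallest gap left between peaks was 201 bp. The input samples were not analysed here. Gene models were GENCODE M21. Coverage of each window (gene body and 50 kb either side), regions (union of overlapping peaks, present in a tumor with 1 bp overlap) and promoter peaks (within 1 kb) were computed for all protein-coding genes in Python 3.11.15 with NumPy 2.4.6 and SciPy 1.17.1, and samtools 1.23.1 indexed the genome. Groups were compared by order and by exact permutation tests, and the functions were tested on simulated intervals. All 10 members were named. The 38 pathway genes were counted, naming the 2 with the largest difference in each direction among those whose groups did not overlap, and neighbours were named where a region lay at their start. H19 was listed with them, and Fam169b and the pathway genes without a peak were named after the values were seen. Members and lists were chosen with earlier results of these data known. The tumors came from separate mice. Alternatives are given in the closing section.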

Additional observations from a re-analysis of the deposited data

How the results depend on the processing

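Leaving out a tumor cannot make groups overlap that are apart, so the order could change under 7 alternatives. Igf1r remained higher in both control tumors in all 7, between -3.66 and -1.66 points. Irs1 remained higher in both test tumors in 6 of 7, the exception being peaks at least 1 kb wide, where no member was (0). Igfbp4 kept the order in 4 of 7, and lost it with a 10 kb flank, in the gene body alone and with the regions nearest to its own start, where 1 member (Igf1r) was left higher in the controls; the last 2 alternatives were chosen after seeing the data. Apart from leaving out a tumor, Irs2 joined the members higher in both controls with coverage scaled to all genes, flanks of 10 or 100 kb and peaks at least 1 kb wide. Igfbp3 joined them with a 10 kb flank (-2.49 points) and in the gene body alone (-8.84), and its difference ranged up to 1.21 points (without test tumor 1). Control-only regions fell to 3 with a 10 kb flank and to 5 with peaks at least 1 kb wide, where test-only regions numbered 1. Leaving out 1 tumor left a group with 1 sample and gave values without a test: members higher in the control tumors ranged from 2 to 5 (4 without control tumor 2, 5 without test tumor 1), higher in the test tumors from 1 to 3 (3 without control tumor 1 or either test tumor), the median difference from -2.07 (without test tumor 1) to 0.15, control-only regions from 12 (without test tumor 2) to 30 (without control tumor 1), with 26 without control tumor 2 and 20 without test tumor 1, and test-only regions from 3 to 11, with 8 without control tumor 1, 11 without test tumor 1 and 10 without test tumor 2. Members with a promoter peak in all tumors were 6 in all but 1 alternative (4 with peaks at least 1 kb wide). With no depth in the lists, a missing peak may be one below the caller's threshold. No paired analysis was possible because the labels tie no control tumor to a test tumor.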
